A study of Homo sapiens with 24 samples.

Results

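The Hedgehog receptors and GLI factors measured here are 9 human genes, PTCH1, SMO, SUFU, GLI1, GLI2, GLI3, HHIP, GAS1 and BOC. They were chosen by name, and every probe set that the array's gene table gives to one of them was kept. That gave 27 probe sets of the 54675 on the array, and 9 of the 19775 genes named by probe sets of a single gene. None of the 27 is shared with another gene.

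The arrays came from HEK293 cells, an embryonic kidney line, in 8 conditions of 3 arrays each. Cells were given no DNA (untransfected), the empty plasmid pCDNA3, Flag-tagged wild type SIRT6 or the Flag-tagged H133W mutant of SIRT6, each without or with 10 ng/ml TNFα, and the unstimulated cells received the carrier of TNFα in fresh medium. SIRT6 is an NAD-dependent deacetylase of histone H3, and H133W is described in the study as deacetylase-dead. Plasmids were left on the cells for 24 h before stimulation, which lasted 4 h in the methods of the study and 1 h in the design text of the series. The transfection was transient and reached only some of the cells of a well, whereas RNA was taken from all of them, and the plasmid adds SIRT6 to a cell that keeps its own. The labels call the arrays of a condition biological replicates without naming separate cultures, so that p values measure the spread between these arrays, part of which may be technical. In such bulk RNA a loss of cells that express a gene and a loss of its RNA per cell cannot be told apart.

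Hedgehog ligands bind the membrane protein PTCH1, which otherwise holds SMO, a protein related to G protein coupled receptors, in its inactive state. Freed SMO acts in the primary cilium to release the GLI transcription factors from SUFU, which retains them. GLI1 is an activator, GLI3 mostly a repressor and GLI2 chiefly an activator, and PTCH1, HHIP and GLI1 are themselves classical targets of the pathway, so that their RNA is often read as its output. HHIP binds and traps ligand, and GAS1 and BOC are coreceptors that present it to PTCH1.

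The starts of PTCH1 and HHIP are printed because these genes passed the adjusted p with TNFα in all 4 kinds of cell. RefSeq on GRCh38.p14 gave promoter windows of 300 bases, 250 before the start and 50 from it onwards, for 7 of the 9 genes (13 windows, 5 of them for PTCH1), and GLI1 and GLI3 were not among them. The windows were searched on both strands for the GLI motif GACCACCCA and for the κB consensus, the site bound by NFκB, the factor that TNFα activates. Capitals mark the matches, and each sequence runs 5′ to 3′ along the strand of its gene.
PTCH1, first start, chr9:95516922-95517221, minus strand, reverse complement of the κB consensus in capitals: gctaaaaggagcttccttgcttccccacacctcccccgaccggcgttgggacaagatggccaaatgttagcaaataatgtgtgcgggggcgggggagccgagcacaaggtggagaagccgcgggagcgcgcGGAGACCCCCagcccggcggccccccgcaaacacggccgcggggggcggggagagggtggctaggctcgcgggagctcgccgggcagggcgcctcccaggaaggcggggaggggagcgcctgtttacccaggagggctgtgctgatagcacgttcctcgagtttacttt
PTCH1, second start, chr9:95509217-95509516, minus strand, reverse complement of the GLI motif in capitals: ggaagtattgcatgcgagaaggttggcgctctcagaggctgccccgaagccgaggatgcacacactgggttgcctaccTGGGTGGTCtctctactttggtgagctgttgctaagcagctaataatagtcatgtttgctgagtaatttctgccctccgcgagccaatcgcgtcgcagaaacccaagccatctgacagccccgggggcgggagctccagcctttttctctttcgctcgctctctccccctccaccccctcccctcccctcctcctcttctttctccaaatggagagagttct
HHIP, chr4:144645906-144646205, plus strand, no match of either motif: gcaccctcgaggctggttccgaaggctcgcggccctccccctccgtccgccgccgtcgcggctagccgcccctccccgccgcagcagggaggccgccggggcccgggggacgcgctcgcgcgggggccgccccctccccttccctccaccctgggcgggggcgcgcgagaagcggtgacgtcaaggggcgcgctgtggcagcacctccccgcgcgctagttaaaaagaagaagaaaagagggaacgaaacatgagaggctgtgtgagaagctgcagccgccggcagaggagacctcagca

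The GLI motif lay in 1 of the 13 windows, that of the second PTCH1 start, where it was read on the opposite strand as TGGGTGGTC from 172 bases before the start. This motif occurred in 0.236% of all 35116 promoter windows of the same length. The κB consensus lay in 3 of the 13, at the first PTCH1 start, SUFU and GLI2, and in 5.91% of all windows. In the PTCH1 window it began 119 bases before the start, and in the HHIP window neither motif was found. These matches describe the letters of the windows only, since no binding was measured.

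The genes are placed on GRCh38.p14, each from first to last base of the gene. The RMA values are on the log2 scale, and for each gene the probe set with the highest mean over the 24 arrays is described first. Of these 9 main probe sets 8 lay at or above the median of the table (5.34), and the exception was GLI1, whose single probe set was dim. Of all 27 probe sets 16 lay at or above it. A probe set was called when the p value of limma, adjusted over the whole table by Benjamini and Hochberg, was under 0.05 and the change exceeded 1.5-fold, 0.585 on the log2 scale. HEK293 markers such as NEFL, KRT18 and VIM were bright (6 of 8 measured lay above the median of the table, and the list had mean levels of 8.36 to 8.60), whereas none of the 3 blood and 3 endothelial markers measured lay above it. Of the HEK293 list NEFM (5.11) and PAX2 (4.99) lay under the median, and LHX1 (5.41) lay close above it. Replicate 3 of H133W cells with TNFα stood apart, with a 3′ to 5′ difference of β-actin of 3.03 against 1.33 to 1.79 on 22 other arrays and the lowest array weight (0.0844). Empty vector replicate 2 (2.05) and untransfected replicate 2 had the next lowest weights, 0.383 and 0.311. Several of the results that rest on these arrays are given with and without them.

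PTCH1 was lower after TNFα in all 4 kinds of cell, by 1.53- to 1.73-fold on its main probe set. Smaller decreases of the ligand trap HHIP passed the adjusted p but not the fold threshold, narrowly in untransfected and empty vector cells, and the coreceptor GAS1 passed both in H133W cells. No member was called higher. The change of PTCH1 was larger than the spread between replicates in each kind of cell, as its values show.

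In untransfected cells PTCH1 (probe set 209815_at, gene at chr9:95442980-95516971) read 9.82, 9.85 and 9.64 on the resting arrays, and 9.27, 9.15 and 9.03 after TNFα, a change of -0.62 (95% interval -0.77 to -0.47, adjusted p = 1.46e-05). In empty vector cells it read 9.85, 9.99 and 9.88, and 9.16, 9.08 and 9.28 with TNFα, a change of -0.73 (adjusted p = 1.35e-06). Every stimulated array lay below every resting one. In SIRT6 cells the values were 9.87, 9.86 and 9.93 at rest and 9.15, 9.11 and 9.12 with TNFα, which differ by -0.76 (adjusted p = 9.12e-07). In H133W cells they were 9.81, 9.81 and 9.74 at rest and 8.99, 8.95 and 9.04 with TNFα, which differ by -0.79 (adjusted p = 4.87e-07). The resting and stimulated arrays did not overlap in any kind of cell. In untransfected cells alone the call rested on single arrays, for without untransfected replicate 2 the change was -0.58 and without replicate 3 with TNFα it was -0.56, both under the fold threshold with adjusted p values of 0.000183 and 0.000182. With array weights the change in untransfected cells was -0.54, also under the fold threshold. Averaged over the 4 kinds of cell the change was -0.73 (SE 0.0354, adjusted p = 7.72e-12).

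Ordered by mean, PTCH1 was lowest in H133W cells with TNFα (8.99 ± 0.0441, SD, n = 3), followed by SIRT6 (9.13 ± 0.0178), untransfected (9.15 ± 0.116) and empty vector cells (9.17 ± 0.098) with TNFα. The resting levels followed at 9.77 ± 0.114 in untransfected, 9.78 ± 0.0411 in H133W, 9.89 ± 0.0364 in SIRT6 and 9.91 ± 0.0707 in empty vector cells. No difference between neighbours that was tested among the resting or among the stimulated conditions passed, the adjusted p of H133W against SIRT6 being 0.771 at rest and 0.357 with TNFα. The response to TNFα was not shown to depend on the plasmid either, its difference from empty vector cells being 0.12 in untransfected (95% interval -0.09 to 0.33), -0.02 in SIRT6 (-0.23 to 0.18) and -0.06 in H133W cells (-0.27 to 0.15).

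A second PTCH1 probe set, 209816_at, changed by -0.71, -0.71, -0.89 and -0.67 in untransfected, empty vector, SIRT6 and H133W cells. It was called in SIRT6 cells, where it read 6.08, 6.22 and 6.11 at rest and 5.18, 5.65 and 4.90 with TNFα (adjusted p = 0.044). This call was lost without any single array of the comparison other than SIRT6 replicate 2 with TNFα, the adjusted p then lying between 0.104 and 0.279. In H133W cells its stimulated values were 5.05, 5.21 and 6.17, the last being the array that stood apart, and without it the change was -1.02 (adjusted p = 0.00368). The other 3 PTCH1 probe sets, 238754_at, 208522_s_at and 1555520_at, were dim and had smaller mean changes over the 4 kinds of cell, of -0.04, -0.06 and -0.16 (adjusted p = 0.687, 0.693 and 0.594). The last was -0.30 (adjusted p = 0.0259) without replicate 3 of H133W cells with TNFα.

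**Figure D1:**
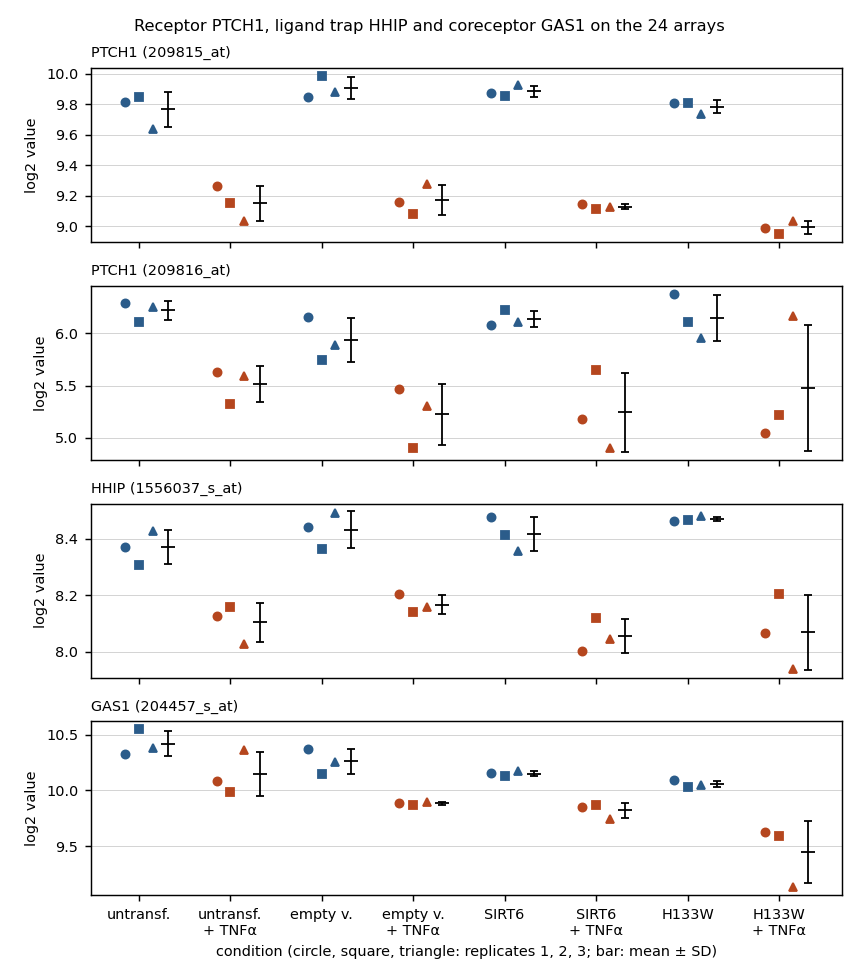
Log2 values of 2 PTCH1 probe sets, HHIP and GAS1 (vertical axes) on each of the 24 arrays in the 8 conditions (horizontal axis), resting in blue and with TNFα in orange, with the mean and SD of 3 arrays in black. For the main PTCH1 probe set and HHIP every stimulated array lay below the resting arrays of the same kind of cell, and GAS1 was lowest, at 9.13, on replicate 3 of H133W cells with TNFα.

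HHIP (chr4:144646156-144745271), the ligand trap, was lower with TNFα by 0.27 to 0.40 on the log2 scale. Its main probe set, 1556037_s_at, read 8.37, 8.31 and 8.43 in resting untransfected cells against 8.13, 8.16 and 8.03 with TNFα (change -0.27, adjusted p = 0.0491). In empty vector cells 8.44, 8.37 and 8.49 stood against 8.20, 8.14 and 8.16 (-0.27, adjusted p = 0.042). Neither pair of conditions overlapped, but the pass was lost without any single array of the comparison (adjusted p from 0.0527 to 0.224 in untransfected and from 0.0545 to 0.178 in empty vector cells). In SIRT6 cells it read 8.48, 8.41 and 8.36, and 8.003, 8.12 and 8.04 with TNFα (-0.36, adjusted p = 0.00356). In H133W cells it read 8.46, 8.47 and 8.48, and 8.06, 8.20 and 7.94 with TNFα (-0.40, adjusted p = 0.00122). These values again did not overlap and passed without each array, and the decrease in H133W cells was -0.34 (adjusted p = 0.00565) without replicate 3 with TNFα. Over all settings tried, the adjusted p of HHIP reached 0.274 in untransfected, 0.178 in empty vector, 0.0321 in SIRT6 and 0.263 in H133W cells. The pass in H133W cells was thus not kept in every setting. Averaged over the 4 kinds of cell, HHIP changed by -0.32 (SE 0.0334, adjusted p = 7.18e-07), and 2 more of its probe sets passed the adjusted p, 230135_at at -0.41 (6.68e-05) and 223775_at at -0.32 (0.00498). The fourth, 237466_s_at, changed by -0.32 as well but with more spread (adjusted p = 0.143).

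The coreceptor GAS1 (chr9:86944362-86947506), a membrane-anchored protein first known for its induction in growth arrest, was called in H133W cells. Its main probe set, 204457_s_at, read 10.09, 10.03 and 10.05 at rest and 9.63, 9.60 and 9.13 with TNFα, a change of -0.61 (95% interval -0.83 to -0.38, adjusted p = 0.00261). The value of 9.13 belonged to the array that stood apart, and without it the change was -0.45 (adjusted p = 0.00889), under the fold threshold. In the other cells the decrease was -0.27 untransfected, -0.37 with the empty vector and -0.33 with SIRT6 (adjusted p = 0.384, 0.0979 and 0.178). The difference of the H133W response from that of empty vector cells was -0.23 (95% interval -0.55 to 0.09, adjusted p = 0.602), and no dependence on the mutant was thereby shown. Averaged over the 4 kinds of cell GAS1 changed by -0.40 (adjusted p = 3.52e-05), its second probe set 228187_at by -0.34 (0.000326) and the dim 204456_s_at by -0.08 (0.618). These averages include the array that stood apart.

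BOC (chr3:113210926-113287459), the other coreceptor, an immunoglobulin and fibronectin domain protein, read 8.33, 8.74 and 8.63 in empty vector cells and 7.85, 7.86 and 7.97 with TNFα (225990_at, change -0.68, adjusted p = 0.161). In untransfected cells the values 8.48, 8.18 and 8.39 stood against 7.99, 8.09 and 7.83, and in SIRT6 cells 8.55, 8.53 and 8.29 stood against 7.76, 8.06 and 7.76. These conditions did not overlap, but the changes of -0.38 and -0.60 did not pass (adjusted p = 0.732 and 0.269). In H133W cells BOC read 8.60, 8.66 and 8.57 at rest and 7.98, 8.05 and 9.30 with TNFα, where the highest value of all 24 arrays was again on replicate 3. The change there was -0.17 (adjusted p = 0.748) with that array and -0.59 (adjusted p = 0.00906), past both thresholds, without it. Averaged over the 4 kinds of cell the decrease of BOC was -0.46 (adjusted p = 0.00967), and -0.56 (adjusted p = 5.51e-07) without that array. The less bright BOC probe sets moved less. Means of 230035_at without and with TNFα were 5.53 and 5.42 untransfected, 5.58 and 5.16 with empty vector, 5.46 and 5.17 with SIRT6. In H133W cells they were 5.54 and 5.32. Those of 224184_s_at were 5.56 and 5.44, 5.59 and 5.28, 5.63 and 5.32. In H133W cells 224184_s_at had 5.41 and 5.43, with 5.81 on that array.

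SMO, SUFU and the GLI factors follow with their mean changes with TNFα over the 4 kinds of cell. These means include replicate 3 of H133W cells with TNFα. SMO (chr7:129188633-129213545), the transducer that PTCH1 holds, has 1 probe set and changed by -0.16 on average (adjusted p = 0.0434), and lay between 7.31 and 7.98 on the 24 arrays. GLI2 (chr2:120735868-120992653) changed by -0.33 on both of its brighter probe sets (adjusted p = 0.0135 for 228537_at and 0.0307 for 207034_s_at), and by 0.01 on the dim 208057_s_at. In H133W cells with TNFα GLI2 read 6.35, 6.51 and 7.34 on 228537_at, again with replicate 3 far from the other two. For GLI3 (chr7:41960949-42264268) the bright main probe set changed by -0.11 (adjusted p = 0.181), 205201_at by -0.22 (0.0603) and 1569342_at by -0.20 (0.00528), which passed. SUFU changed by -0.02 (adjusted p = 0.844) on its main probe set and GLI1 by -0.06 (0.647, 95% interval -0.21 to 0.08). Of the 3 dim SUFU probe sets, 224203_at passed at -0.16 (adjusted p = 0.0418).

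**Figure D2:**
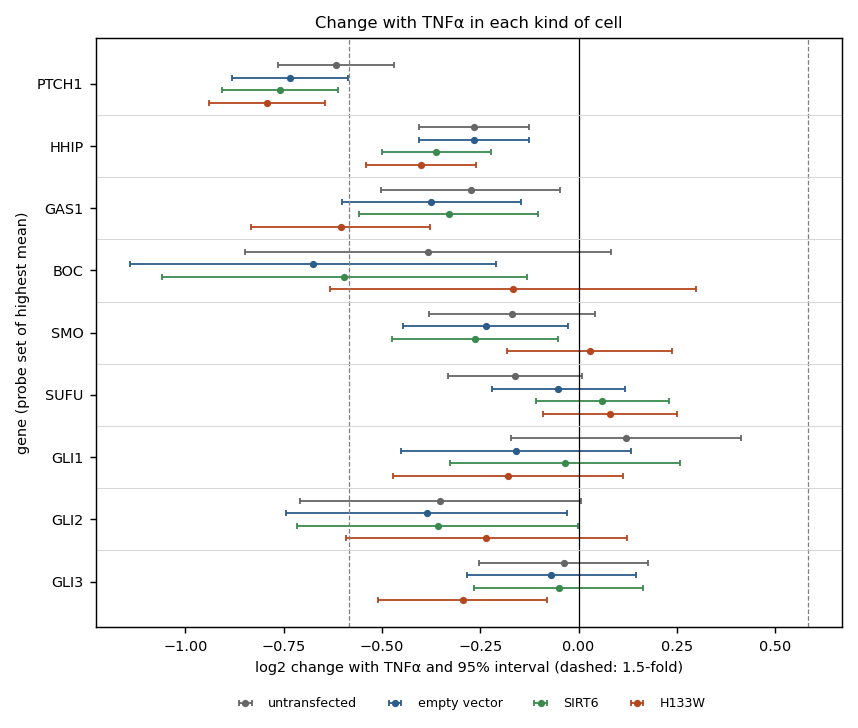
Change with TNFα (horizontal axis, log2, with 95% interval) of the main probe set of each of the 9 genes (vertical axis) in untransfected, empty vector, SIRT6 and H133W cells, with dashed lines at 1.5-fold. PTCH1 lay beyond 1.5-fold in all 4 kinds of cell and HHIP between -0.27 and -0.40, whereas the intervals of GLI1 held 0 throughout.

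**Figure D3:**
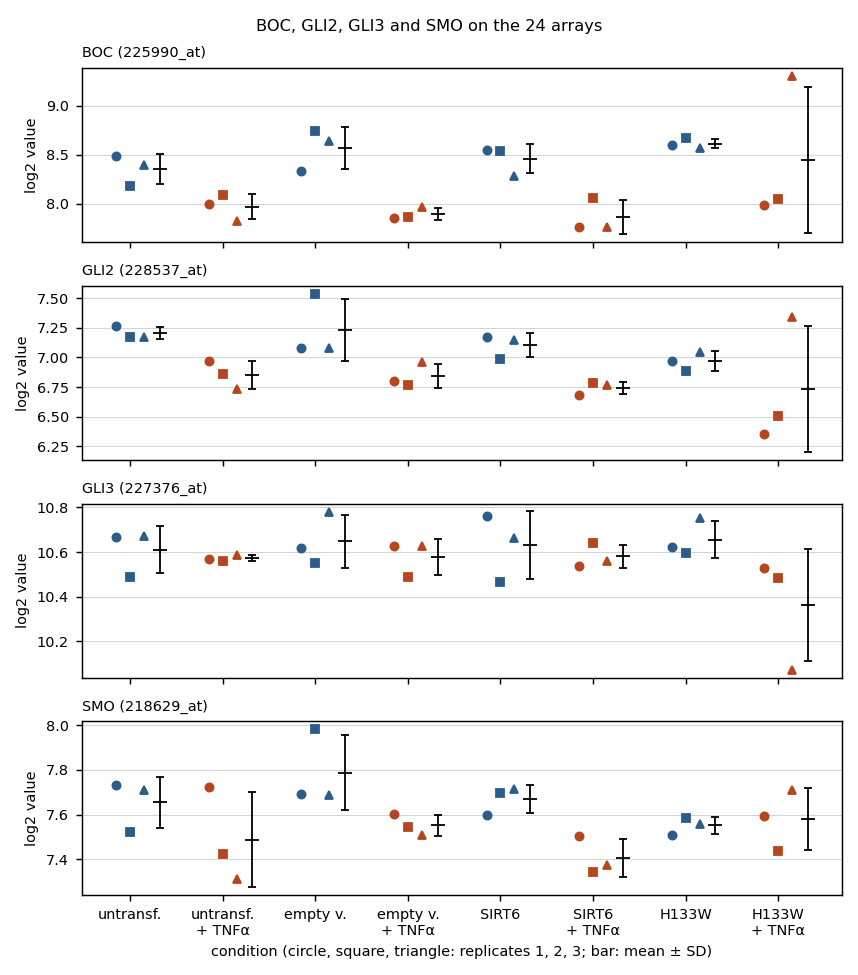
Log2 values of BOC, GLI2, GLI3 and SMO (vertical axes) on each of the 24 arrays in the 8 conditions (horizontal axis), resting in blue and with TNFα in orange, with the mean and SD of 3 arrays in black. On replicate 3 of H133W cells with TNFα, BOC was highest (9.30) and GLI3 lowest (10.07) of all arrays.

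Counted together, 1 of the 27 probe sets was called with TNFα in untransfected cells, 1 in empty vector, 2 in SIRT6 and 2 in H133W cells, all lower. Without replicate 3 of H133W cells with TNFα there were 3 in H133W cells, the brighter pair of PTCH1 and BOC, and GAS1 was no longer among them. Among all probe sets measured, 0.775%, 0.86%, 0.845% and 1.12% were called in these comparisons in either direction, and 0.174%, 0.276%, 0.342% and 0.572% as lower. The median change of the 27 was -0.17, -0.25, -0.28 and -0.18, against -0.01, -0.02, -0.02 and -0.00 over the table. In the mean over the 4 kinds of cell, 2 of the 27, both of PTCH1, were called (0.843% of the table in either direction, 0.265% lower), and 14, of 8 genes, were lower at an adjusted p under 0.05 with no fold threshold, where the table had 7.1%. None was higher. Without replicate 3 of H133W cells with TNFα these 14 became 18, again of 8 genes (11.2% of the table). With each array centred on its median they became 12, of only 6 genes (6.18%). The differences of response between kinds of cell gave no call by limma or by the plain linear model among the members, and the shares called among all probe sets were 0%, 0% and 0.00366% for untransfected, SIRT6 and H133W cells against empty vector cells. At an unadjusted p under 0.05 there were 0, 0 and 1 member probe sets, the last being SUFU 224201_s_at. Among all probe sets 2.42%, 2% and 8.46% lay under that p.

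Markers of other cell types were examined beside these decreases. Of the 7 fibroblast markers 2 lay at or above the median of the table, and their summed level, given as the mean log2 value of the list, ran from 4.58 to 5.15 over the arrays. One of the 7, PDGFRA, was called lower with TNFα in empty vector (-1.10), SIRT6 (-1.20) and H133W cells (-1.44) and in H133W against empty vector cells with TNFα (-0.86, and -0.77 with adjusted p = 0.0507 without replicate 1 of empty vector with TNFα). The 2 were COL1A1 (mean 7.38) and COL3A1 (7.46), whereas COL1A2, DCN, LUM, THY1 and PDGFRA itself (4.22) lay under it, and the part of these markers in the decrease of PTCH1 was not tested. The endothelial markers (3.71 to 4.36) had no call, and of 3 blood markers (2.83 to 3.14) CD14 was called higher in SIRT6 than in empty vector cells with TNFα (0.63), a call lost without any single array (adjusted p from 0.0718 to 0.356).

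Over expression of SIRT6 or H133W was compared with the empty vector, at rest and with TNFα. The comparisons at rest share the empty vector arrays, and those with TNFα share the stimulated ones. GLI1 (chr12:57459785-57472268), the activating factor whose own gene responds to the pathway, was called higher in 3 of the 4 comparisons, by 1.51- to 1.66-fold, and in the fourth, SIRT6 at rest, the 1.52-fold difference did not pass. No difference between mutant and active enzyme passed for GLI1, and no other member was called.

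At its levels, in the range of the blood and endothelial markers (means of 2.06 to 4.19), whether the GLI1 probe set lay above background was not tested, and folds on it are those of the RMA values only. This probe set, 206646_at, read 3.22, 3.80 and 3.43 in empty vector cells. It read 3.98, 4.24 and 4.06 in SIRT6 cells, a difference of 0.61 (95% interval 0.32 to 0.90, adjusted p = 0.162), and 3.95, 4.31 and 4.05 in H133W cells, a difference of 0.62 (0.33 to 0.91, adjusted p = 0.0164). The adjusted p differs between these similar changes because it is set over all probe sets of a comparison, and 0.0348% of these were called for SIRT6 and 0.77% for H133W. With TNFα it read 3.39, 3.50 and 3.09 in empty vector cells against 4.09, 4.10 and 3.98 with SIRT6, a difference of 0.73 (0.44 to 1.03, adjusted p = 0.0389). With H133W and TNFα it read 3.90, 3.76 and 4.11, a difference of 0.60 (0.30 to 0.89, adjusted p = 0.0157). The lowest array with either plasmid (3.76) lay below 1 empty vector array, the resting replicate 2 (3.80), but within rest and within TNFα the conditions did not overlap. In untransfected cells GLI1 read 3.52, 3.31 and 3.55 at rest and 3.42, 3.62 and 3.72 with TNFα, near the empty vector cells (difference 0.02 at rest and -0.26 with TNFα, adjusted p = 0.967 and 0.508).

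Ordered by mean, GLI1 ran from 3.33 ± 0.211 (SD, n = 3) in empty vector cells with TNFα over 3.46 ± 0.13 in untransfected, 3.48 ± 0.295 in empty vector and 3.58 ± 0.151 in untransfected cells with TNFα. The conditions given a SIRT6 or H133W plasmid followed, at 3.92 ± 0.174 for H133W with TNFα, 4.06 ± 0.0659 for SIRT6 with TNFα, 4.09 ± 0.134 for SIRT6 and 4.10 ± 0.189 for H133W. The last 4 were not told apart by the tests run, H133W minus SIRT6 being 0.01 at rest (95% interval -0.28 to 0.30) and -0.14 with TNFα (-0.43 to 0.16). These intervals still allow differences of up to 0.43 between the enzymes.

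The single GLI1 calls depended on few arrays at this dim level. For H133W at rest the call was lost without H133W replicate 2 (0.51, adjusted p = 0.101), H133W replicate 3 (0.65, adjusted p = 0.051), empty vector replicate 1 (0.49, adjusted p = 0.0982) or empty vector replicate 3 (0.59, adjusted p = 0.0583). For SIRT6 with TNFα it was lost without any single array of the comparison, the changes then lying between 0.62 and 0.82 and the adjusted p between 0.0743 and 0.227. For H133W with TNFα it was lost without replicate 3 of H133W with TNFα (0.50, adjusted p = 0.0758) or of empty vector with TNFα (0.48, adjusted p = 0.0997). For SIRT6 at rest, by contrast, leaving out empty vector replicate 2 gave a call (0.77, adjusted p = 0.0452). Averaged without and with TNFα, GLI1 was higher by 0.67 with SIRT6 (SE 0.099, adjusted p = 0.00163, where 0.0585% of the table was called) and stayed called without each array. With H133W the average was 0.61 (adjusted p = 0.000385, with 0.829% of the table called), and it lay under the fold threshold, at 0.54 to 0.56 with adjusted p values under 0.05, without H133W replicate 2, without replicate 3 of H133W with TNFα, without empty vector replicate 1 or without replicate 3 of empty vector with TNFα.

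**Figure D4:**
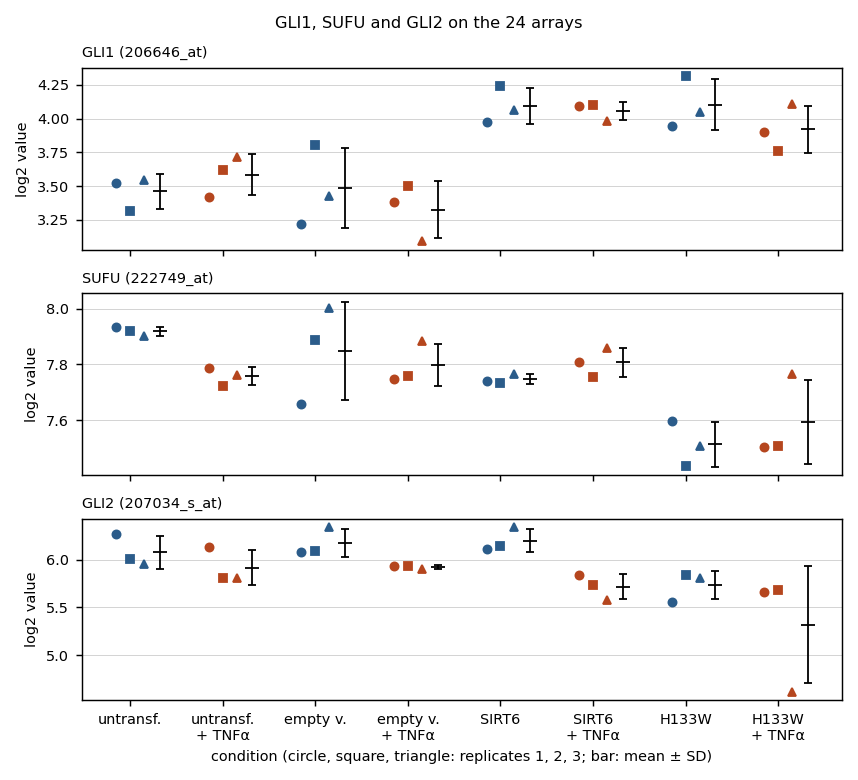
Log2 values of GLI1, SUFU and GLI2 (vertical axes) on each of the 24 arrays in the 8 conditions (horizontal axis), resting in blue and with TNFα in orange, with the mean and SD of 3 arrays in black. GLI1 read 3.76 to 4.31 on the 12 arrays with a SIRT6 or H133W plasmid and 3.09 to 3.80 on the 12 without, and SUFU was lowest on resting H133W replicate 2 (7.44).

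SUFU (chr10:102502819-102633535), the negative regulator that holds GLI proteins, read 7.66, 7.89 and 8.003 in empty vector cells and 7.60, 7.44 and 7.51 in H133W cells on its main probe set 222749_at. The difference of -0.34 passed the adjusted p (0.0261) but not the fold threshold, and the adjusted p rose to between 0.0993 and 0.128 when replicate 2 or 3 of either H133W or empty vector cells was left out. With TNFα the difference was -0.20 (adjusted p = 0.156), and -0.29 (adjusted p = 0.0449) without replicate 3 of H133W with TNFα. SUFU in SIRT6 cells differed from empty vector cells by -0.10 (95% interval -0.27 to 0.07) and 0.01 (-0.16 to 0.18). At rest its dim probe set 224203_at ran the other way in H133W cells, at 0.04 (adjusted p = 0.902). Its dim 224202_at (3.61 against 3.86) and 224201_s_at (3.41 against 3.66) had lower means there than in empty vector cells. With TNFα each of these dim SUFU probe sets had a higher mean in H133W than in empty vector cells. The means were 3.93 against 3.71 for 224203_at, 3.80 against 3.69 for 224202_at and 3.74 against 3.52 for 224201_s_at.

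GLI2 on 207034_s_at read 6.09, 6.10 and 6.34 in empty vector and 5.56, 5.84 and 5.81 in H133W cells, and 5.94, 5.93 and 5.90 against 5.66, 5.68 and 4.61 with TNFα. The arrays did not overlap, but the differences of -0.44 and -0.61 did not pass (adjusted p = 0.285 and 0.0742). Their mean of -0.52 (adjusted p = 0.0181) passed the adjusted p without reaching the fold threshold, and was -0.35 (adjusted p = 0.00755) without replicate 3 of H133W with TNFα. On 228537_at the mean difference was -0.18 (adjusted p = 0.416), and -0.34 (0.00586) without that array. GAS1 was lower in H133W than in empty vector cells with TNFα by -0.43 (adjusted p = 0.025), which was -0.27 without that array, and its probe set 204456_s_at gave 0.04 (adjusted p = 0.936).

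**Figure D5:**
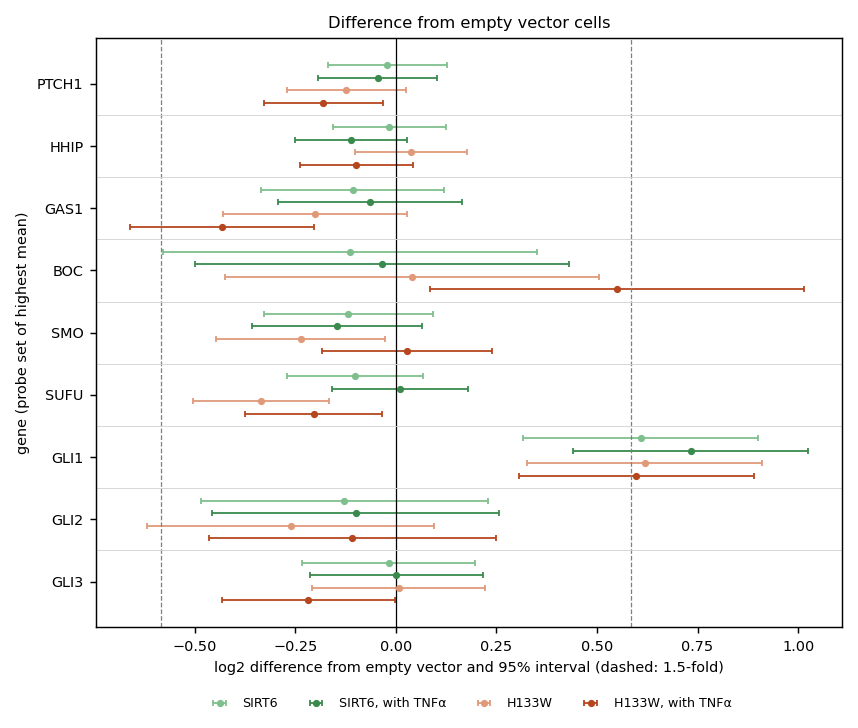
Difference from empty vector cells (horizontal axis, log2, with 95% interval) of the main probe set of each of the 9 genes (vertical axis) for SIRT6 and H133W, without and with TNFα, with dashed lines at 1.5-fold. The 4 GLI1 intervals ran from 0.30 upwards, and the wide interval of BOC for H133W with TNFα includes the array that read 9.30.

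In number, 0 of the 27 probe sets were called for SIRT6 at rest, by limma and by the plain linear model, with 1 at an unadjusted p under 0.05 (5.57% of the table). Each of the other 3 comparisons with the empty vector had 1 call, that of GLI1, where 0.0695% of all probe sets were called for SIRT6 and 1.4% for H133W with TNFα. H133W against SIRT6 gave 0 calls at rest and 0 with TNFα by limma and by the plain linear model, with 3 and 5 member probe sets at an unadjusted p under 0.05 (8.69% and 15.9% of the table) and 0.119% and 0.333% of the table called. The empty vector against no DNA gave 0 and 0 by both, with 1 and 6 at an unadjusted p under 0.05 (12.4% and 11.5% of the table), and 0.0933% and 0.0329% of the table called. The single one at rest was HHIP 230135_at, which was 0.44 higher with the empty vector (adjusted p = 0.137). Its values were 6.95, 6.80 and 6.97 without DNA and 7.22, 7.39 and 7.43 with the empty vector, which did not overlap.

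Beyond the 9 members, 52 other genes of the pathway were listed by role, of which 50 were measured by 135 probe sets. Of 6 genes of the ligands and their processing none was called in any of the 8 comparisons with TNFα or with the empty vector, with 0 to 2 of 8 probe sets at an unadjusted p under 0.05. SHH, the ligand that gives the pathway its best known role, changed by -0.20 to 0.07 with TNFα. None of 5 ciliary transport genes was called either (0 to 4 of 9 probe sets at an unadjusted p under 0.05). Of the further coreceptors neither CDON nor LRP2 was called by limma (0 to 3 of 5 probe sets at an unadjusted p under 0.05). Over these 8 comparisons 5.57% to 20.4% of the table lay under that unadjusted p, and 0.0348% to 1.4% were called. At such shares the lack of calls in lists this short says little about their genes. CDON, the relative of BOC, was lower in H133W than in empty vector cells, by -0.33 at rest (adjusted p = 0.0474) and -0.48 with TNFα (adjusted p = 0.00288), both under the fold threshold.

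Of 18 measured genes that act between SMO and GLI, ARRB1 was called higher with TNFα in all 4 kinds of cell. ARRB1 encodes a β-arrestin, an adaptor of G protein coupled receptors that also binds SMO, and its main probe set rose by 0.92, 0.88, 0.78 and 0.80 in untransfected, empty vector, SIRT6 and H133W cells (adjusted p = 0.00116, 0.00184, 0.00556 and 0.00414). In H133W cells the rise was 0.57 (adjusted p = 0.0146), under the fold threshold, without replicate 3 with TNFα. The kinase CSNK1A1, which phosphorylates SMO and GLI proteins, was called higher in H133W than in empty vector cells on 1 of its less bright probe sets, by 0.71 at rest and 0.76 with TNFα (adjusted p = 3.68e-05 and 1.6e-05), and in both it stayed called without each array. With TNFα this probe set was also called against SIRT6 cells (0.59, adjusted p = 0.00146). That call was lost without replicate 3 of H133W with TNFα (0.55) or replicate 2 or 3 of SIRT6 with TNFα (0.58 and 0.56). A dim CSNK1A1 probe set was called against the empty vector at rest as well (0.63, adjusted p = 0.023). It was lost without replicate 2 or 3 of H133W or replicate 1 or 2 of empty vector cells. The brightest CSNK1A1 probe set disagreed, with differences from empty vector cells of 0.11 (adjusted p = 0.488) and -0.01 (0.9747). In the presence of TNFα CUL3, the scaffold of a ubiquitin ligase that turns over GLI proteins, was called lower in H133W than in empty vector cells on 1 of its dimmer probe sets (-0.64, adjusted p = 0.029), while its brightest differed by -0.05 (0.716). That call was lost without replicate 2 or 3 of either condition, at changes of -0.64 to -0.56 and adjusted p values of 0.0611 to 0.129. For SIRT6 against the empty vector limma called none of the 50 genes, with 10 of the 135 probe sets at rest and 8 with TNFα at an unadjusted p under 0.05, where the table had 5.57% and 6.61%.

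Of 19 known GLI targets, SOX9, a transcription factor of cartilage and neural crest, was called higher with TNFα in untransfected (0.72), empty vector (0.85) and SIRT6 cells (0.68, with adjusted p values of 0.0311, 0.00787 and 0.0406). In H133W cells SOX9 changed by 0.28 (adjusted p = 0.394), replicate 3 with TNFα included. The difference of this response from that of empty vector cells was -0.57 and did not pass (adjusted p = 0.567). The calls in untransfected and SIRT6 cells were lost without any single array of the comparison (adjusted p from 0.0622 to 0.162 and from 0.0634 to 0.26), and that in empty vector cells without replicate 2 (0.68, adjusted p = 0.0685). PAX6, a factor of eye and neural tube, was called lower with TNFα in H133W cells on 1 probe set (-0.64, adjusted p = 0.000508), while its brightest changed by -0.08 (0.68). The called change was -0.51 (adjusted p = 0.00175), under the fold threshold, without replicate 3 with TNFα. BCL2, the inhibitor of apoptosis, named after its values were seen, rose by 0.34 to 0.48 with TNFα with adjusted p values from 0.00188 to 0.0466, under the fold threshold. CCND1 and MYCN, which drive the cell cycle and were also named after their values were seen, changed with TNFα by -0.08 to 0.10 and by -0.05 to 0.13. NKX2-2 and JAG2, likewise named after their values were seen, were lower with TNFα, under the fold threshold. NKX2-2 changed by -0.50 in SIRT6 and -0.52 in H133W cells (adjusted p = 0.0315 and 0.0191), the latter including replicate 3 with TNFα. JAG2 changed by -0.46 in SIRT6 cells (adjusted p = 0.0305). In the remaining kinds of cell their decreases did not pass. No listed target was called by limma for SIRT6 or H133W against the empty vector, where GLI1 itself was higher, with 2, 8, 3 and 11 of 44 probe sets at an unadjusted p under 0.05 for SIRT6, H133W, SIRT6 with TNFα and H133W with TNFα. Among all probe sets 5.57%, 14.7%, 6.61% and 20.4% lay under that p. The median change of these 44 probe sets was -0.01, -0.04, -0.04 and -0.06, against -0.00, -0.02, -0.00 and -0.01 over the table. On their brightest probe sets some targets, named after their values were seen, passed the adjusted p under the fold threshold for H133W, in both directions. SFRP1 differed by -0.44 at rest (adjusted p = 0.0216). With TNFα, replicate 3 of H133W included, CCND1 differed by -0.21 (adjusted p = 0.04355) and ABCG2 by 0.34 (adjusted p = 0.0449).

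The study linked 4 further genes to GLI after choosing them on these arrays, NHLH1, OLIG2, VEGFA and CD24, so that their direction is not independent evidence. It named GLI1 beside them, from the same genes raised in H133W cells with TNFα, so the same limit holds for the GLI1 difference there. All 4 further genes were called higher in H133W than in empty vector cells with TNFα, NHLH1 by 0.76, OLIG2 by 0.80, VEGFA by 0.61 and CD24, on a dim probe set, by 0.78. The brightest CD24 probe set differed by 0.13 (adjusted p = 0.688). Without replicate 3 of H133W with TNFα these were 0.70, 0.61, 0.64 and 0.68, all still called, whereas leaving out replicate 2 of empty vector with TNFα ended the calls of CD24 (adjusted p = 0.0517) and VEGFA (0.58, under the fold threshold). VEGFA, the vascular growth factor, was called at rest too, on 3 probe sets by 0.61 to 0.67, while its brightest differed by 0.40 (adjusted p = 0.0418), under the fold threshold. Of the 3, 1 at 0.64 stayed called without each array. For SIRT6 none was called, with 3 of 13 probe sets at rest and 2 with TNFα at an unadjusted p under 0.05. The table had 5.57% and 6.61% under that p. The difference between H133W and SIRT6 with TNFα was itself called for CD24 (0.72, adjusted p = 0.0363) and lost without any single array of the comparison other than replicate 1 of H133W with TNFα (adjusted p from 0.0584 to 0.144). NHLH1 was also called higher with TNFα in H133W cells (0.64, adjusted p = 0.0147), replicate 3 included. Its changes of 0.14 to 0.37 in the other cells did not pass. The difference of its H133W response from that of empty vector cells was 0.50 (adjusted p = 0.567).

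The genes whose pattern over the 24 arrays was most like that of a called member were ranked by Pearson's r over the probe sets brighter than the median of the table. For PTCH1 they were the metalloprotease ADAMTS5 (r = 0.977), DLC1 (0.97), the serine protease PRSS23 (0.966), TENT5A (0.962) and the semaphorin and VEGF receptor NRP1 (0.961). For GAS1 they were KCTD12 (0.952), KBTBD7 (0.943), PAG1 (0.938), GPC4 (0.936) and LGR5 (0.933), and for GLI1 they were the transcription factors GATA2 (0.891) and ISL2 (0.834), TMEM131 (0.834), ZNF394 (0.832) and ZNF213 (0.825). The second PTCH1 probe set, 209816_at, was most like DNAJC22 (0.878), LRRN1 (0.863), PDE4A (0.86), POU3F3 (0.859) and RASSF3 (0.852). All points share the 8 conditions and the array normalization, and a shared response to TNFα alone raises r. Between members, PTCH1 and HHIP had r = 0.894 over the 24 arrays and r = -0.286 once the mean of each condition was taken off, and PTCH1 and GLI1 had r = 0.0293 and -0.18.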

How the data were processed

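Total RNA of HEK293 cells was measured on 24 Affymetrix arrays, 3 for each of 8 conditions. The log2 values that the authors deposited (RMA, ArrayStudio 4.0) were used for all 54675 probe sets with no filter. Background correction and normalization across arrays compress changes of dim probe sets. All 24 columns carry the name of a sample (0 without one), and probe sets were named by the platform's gene table, matched by Entrez ID to RefSeq (GRCh38.p14).

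A linear model with 1 term per condition over all arrays was run in R 4.3.3 with limma 3.58.1 (16 residual and 3.47 prior degrees of freedom), and p values were adjusted over the table by Benjamini-Hochberg. The study's general linear model and its thresholds were followed, with the plain model as an alternative, and the fit was tested on simulated data. The number of arrays limits the precision. The 9 members, the lists and the rule for named genes (every member probe set, other pathway genes that were called or at most 2 of a list, and the 5 genes most like each called member) were chosen with earlier results of these data known. Contrasts averaged over kinds of cell were added after the values were seen. Uncalled GLI targets named after their values were seen lie outside the rule for named genes.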

Additional observations from a re-analysis of the deposited data

How the results depend on the processing

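Each call was recomputed with a plain linear model, a variance trend, array weights, dim probe sets left out, centred or requantiled arrays, a replicate block, the β-actin difference as a covariate, without the 3 arrays that stood apart, on the compared arrays alone, with no fold threshold and without each array. The same replicate number did not pair arrays (r above 0.1 in 17 of 84 pairs, median 0.00934). The replicate block changed 1 count of calls, that of SIRT6 cells with TNFα, to 1 of 27 (PTCH1 209816_at, adjusted p = 0.0633). It also changed the 14 probe sets of 8 genes lower at an adjusted p alone to 12 of 6 genes, and no other call. Counts of member probe sets called moved as follows. For TNFα in untransfected cells there were 2 without the 3 arrays, on the compared arrays alone and with no fold threshold, and 0 to 2 without single arrays. Without the 3 arrays or with array weights PTCH1 209815_at lay under the fold threshold in these cells. The calls counted in those settings were therefore of other probe sets. In empty vector cells there were 3 with weights or without the 3 arrays, and 2 on the compared arrays or with no fold threshold. In SIRT6 cells there was 1 with the plain model and with centred or requantiled arrays, and 4 with weights or no fold threshold, with 1 to 3 without single arrays. In H133W cells there was 1 with centred arrays and on the compared arrays, and 4 with the covariate, without the 3 arrays and with no fold threshold. For SIRT6 at rest there was 1 with the covariate and without the 3 arrays, and 0 to 1 without single arrays. For SIRT6 with TNFα there were 0 with the plain model, without dim probe sets and on the compared arrays, and 0 to 0 without single arrays. For H133W at rest there were 0 without dim probe sets and on the compared arrays, 2 with no fold threshold and 0 to 1 without single arrays. For H133W with TNFα there were 0 with weights, the covariate, without the 3 arrays and on the compared arrays, 2 with no fold threshold and 0 to 4 without single arrays. H133W against SIRT6 with TNFα had 0 to 1 without single arrays. Among the averages, no fold threshold gave 14 for TNFα and 4 for H133W, leaving out dim probe sets gave 0 for SIRT6 and 0 for H133W, the covariate gave 0 for H133W, and single arrays gave 0 to 2 for H133W. Leaving out dim probe sets leaves out GLI1 itself, and fitting the compared arrays alone leaves fewer arrays to estimate the spread, and the causes of the other changes were not tested. Another probe set of the gene reversed the sign for PTCH1 with TNFα (238754_at, 0.0717 in SIRT6 and 0.0834 in H133W cells, and 1555520_at, 0.32 in H133W cells, which was -0.25 without replicate 3 with TNFα), for GAS1 in H133W cells with TNFα (204456_s_at, 0.0352) and for SUFU in H133W cells (224203_at, 0.0428). Signal near background limits GLI1 and the dim probe sets.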
